A study of Saccharomyces cerevisiae with 6 samples.

Results

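The lowest-covered 10% of yeast open reading frames (ORFs) were examined for signal gained when the cycle of acetylation at lysine 56 of histone H3 was broken. Budding yeast RNA was sequenced by strand, and the deposited table gave coverage per 50-base bin on each strand of the 16 chromosomes. The level of an ORF was the mean coverage of its own strand over its bins, scaled by the authors to a fission yeast RNA spike-in, and is therefore a value per length. Of 6525 ORFs in the table, 6226 had at least 4 numeric bins not shared with another ORF of the same strand. The 622 near-silent ORFs were chosen by the lowest mean sense coverage over all 6 libraries. Their low level is therefore a description, and an ORF that gained much signal in a mutant would have left the set.

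Most genes of a dividing yeast cell are transcribed, and those that are not belong to a few kinds. Meiosis and spore-formation genes are held off in haploid cells by the Ume6 repressor, which binds the URS1 sequence, and by Sum1, which binds the middle sporulation element. Genes for sugars other than glucose and for gluconeogenesis are held off by glucose, mating-type genes by the cell type, and many genes beside chromosome ends lie in or near silent chromatin. Many annotated ORFs, called dubious, lie across or opposite a real gene and are not known to make a protein. Rtt109 acetylates lysine 56 on newly made histone H3 before it enters chromatin, and the sirtuins Hst3 and Hst4 remove the mark after replication. Nucleosomes lack the mark without Rtt109 and keep it through the cell cycle without Hst3 and Hst4.

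Each of 3 groups had 2 libraries from cells in exponential growth in rich glucose medium (YPD). All strains carried URA3::GDP-TK(7x) and AUR1c::ADH-hENT1, which let yeast take up and use thymidine analogs, a bar1 deletion marked with HIS3, and the markers can1-100, trp1-1, ura3-1, his3-11 15 and leu2-3 112. The wild type was MATa, with ade2-1::ADE2 and Rpb3-3HA::TRP. The rtt109D strain was MATa with rtt109 replaced by Kan, and its label also lists ade2-1, GAL, psi+ and RAD5+ but no tagged Rpb3. The hst3,4DD strain was MATalpha, with ade2-1::ADE2, Rpb3-3HA::TRP, hst3 replaced by HygMX and hst4 by NatMX. Mating type therefore cannot be told apart from the hst3 hst4 deletion, nor the lack of tagged Rpb3 from the rtt109 deletion. The labels do not say whether the 2 libraries of a group came from separate cultures, so p-values measure the spread between these libraries, which may be technical.

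Promoters of 4 near-silent genes are shown, chosen by their result in hst3,4DD. They are the 2 listed early meiosis genes that gained signal there and the 2 listed sporulation genes that rose in the test below. Capitals mark the sequence through which meiotic genes are known to be kept off, which most other near-silent genes of these lists also carry. Each is the 300 bases before the start codon in RefSeq's R64 genome, 5′ to 3′ on the gene's strand. SAE3, which assists the meiotic recombinase, lies on the minus strand (window chrVIII:262554-262853), and SPO13, needed for the first meiotic division, on the plus strand (chrVIII:131747-132046); the capitals mark the URS1 core GGCGGC or its reverse complement, 109 and 95 bases before the start codon. LDS1, an outer spore wall gene (chrI:119542-119841, minus), and SPO75, needed for spore formation (chrXII:140547-140846, minus), carry the core of the middle sporulation element, CACAAA or its reverse complement, 178 and 107 bases before the start codon.
SAE3: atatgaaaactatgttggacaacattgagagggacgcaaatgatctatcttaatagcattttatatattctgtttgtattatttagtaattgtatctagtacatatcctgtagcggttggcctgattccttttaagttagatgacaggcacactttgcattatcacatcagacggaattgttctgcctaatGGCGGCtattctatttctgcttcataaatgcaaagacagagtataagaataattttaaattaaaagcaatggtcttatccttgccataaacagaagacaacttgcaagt
SPO13: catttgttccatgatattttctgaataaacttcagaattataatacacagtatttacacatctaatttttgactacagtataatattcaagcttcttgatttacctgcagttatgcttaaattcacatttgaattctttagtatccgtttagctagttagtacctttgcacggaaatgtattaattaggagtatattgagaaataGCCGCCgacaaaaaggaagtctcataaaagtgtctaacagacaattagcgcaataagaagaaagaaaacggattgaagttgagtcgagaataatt
LDS1: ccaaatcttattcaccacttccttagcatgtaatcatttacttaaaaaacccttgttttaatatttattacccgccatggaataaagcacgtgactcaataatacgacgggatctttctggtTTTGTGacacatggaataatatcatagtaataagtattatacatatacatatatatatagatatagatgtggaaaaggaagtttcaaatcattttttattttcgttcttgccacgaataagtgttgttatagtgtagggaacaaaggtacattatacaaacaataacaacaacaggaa
SPO75: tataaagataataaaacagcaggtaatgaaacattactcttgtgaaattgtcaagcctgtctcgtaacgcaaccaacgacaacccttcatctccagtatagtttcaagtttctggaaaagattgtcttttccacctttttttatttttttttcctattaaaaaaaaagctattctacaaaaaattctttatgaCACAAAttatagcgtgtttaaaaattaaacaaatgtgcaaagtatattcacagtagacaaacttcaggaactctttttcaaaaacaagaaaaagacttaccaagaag

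GGCGGC, searched on both strands, was found in the window of 8 of the 9 near-silent genes of an early meiosis list (88.9%), with MSH4 the exception. It was found in 12.5% of the 288 near-silent ORFs with a RefSeq window and in 5.2% of all 6001 windows. CACAAA was found in 11 of the 13 near-silent genes of a sporulation list (84.6%), all but OSW1 and AMA1, against 25.7% of the near-silent ORFs and 19.1% of all windows. Neither core occurred in the other list. The stress response element AGGGG was found in 18.8% of near-silent windows and 22.2% of all. These are matches of letters in a window, not binding sites.

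The 622 ORFs had mean levels from 0 to 0.0670, with a median of 0.0194, against a median of 1.46 in the other 5604. The 4 just inside the limit were FIG1, a mating gene, at 0.0668, YNL067W-A at 0.0668, the urea transporter gene DUR3 at 0.0670 and GAS4, a spore wall glucanosyltransferase gene, at 0.0670. The 4 just outside were NDE2, a mitochondrial NADH dehydrogenase gene, at 0.0672, YMR230W-A and the flocculin gene FLO11, both at 0.0677, and PET191, a cytochrome oxidase assembly gene, at 0.0682. Only 289 near-silent ORFs (46.5%) matched a RefSeq gene by locus tag, against 96.7% of the others. An ORF lay on the opposite strand in at least 50% of the bins of 271 (43.6%), against 5.01% of the others, and 298 had no ORF opposite them. Near-silent ORFs were short, with a median of 8 bins against 24, and 92 of them (14.8%) lay within 20 kb of a chromosome end, against 2.18%. Their median replication timing score in the deposited table was 46.6, and that of the others 47.5.

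The deleted genes followed their labels. RTT109 read 0.727 and 0.791 in the wild type, 0.00200 and 0.00536 in rtt109D, and 0.945 and 0.811 in hst3,4DD. In hst3,4DD, HST3 read 0.0221 and 0.0194 and HST4 0.0849 and 0.00968, against at least 0.452 for either gene in the wild type libraries. BAR1, a protease of alpha factor, was itself near-silent, being deleted in every strain: it read 0.000107 and 0 in the wild type, 0 and 0.000178 in rtt109D, and 0.000174 and 0 in hst3,4DD. These are means over 37 bins, of which at most 1 held signal in any library.

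Depth is unknown, since the table gives scaled coverage. The commonest bin value above 0, taken as the step of 1 read, was 0.00397 and 0.00543 in the wild type, 0.00771 and 0.00658 in rtt109D, and 0.00644 and 0.0124 in hst3,4DD. That step is of a single bin, whereas an ORF's level is a mean over its bins, so a level below the step can still hold reads. From 110 to 293 of the 622 ORFs were below the step of their library, and 67 to 119 were at 0. Libraries of 1 group differed in how much signal fell on the wrong strand. Among 566 of the most covered ORFs with none opposite, the median antisense signal was 1.54% and 0.0852% of the sense signal in wild type 1 and 2, 0.607% and 0.138% in rtt109D, and 0.197% and 1.03% in hst3,4DD. In near-silent ORFs opposite another ORF, sense signal as a percent of the opposite strand's signal put the libraries in the same order. Their sense signal summed to 10.5 and 2.93 in the wild type, 5.45 and 4.24 in rtt109D, and 6.68 and 10.1 in hst3,4DD, which was from 0.490% of the opposite strand's signal in wild type 2 to 2.27% in wild type 1. The part of wrong-strand signal in any single result below was not tested.

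The 298 near-silent ORFs with no ORF opposite showed another order. Their summed sense coverage was 5.51 and 4.09 in the wild type, 5.43 and 5.95 in rtt109D, and 9.94 and 9.37 in hst3,4DD. Both hst3,4DD libraries lay above the other 4, whereas rtt109D and the wild type overlapped. All 622 together held 0.0570% and 0.0213% of the signal of all ORFs in the wild type, 0.0566% and 0.0425% in rtt109D, and 0.0515% and 0.0743% in hst3,4DD, and on that measure the 3 groups overlapped.

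**Figure D1:**
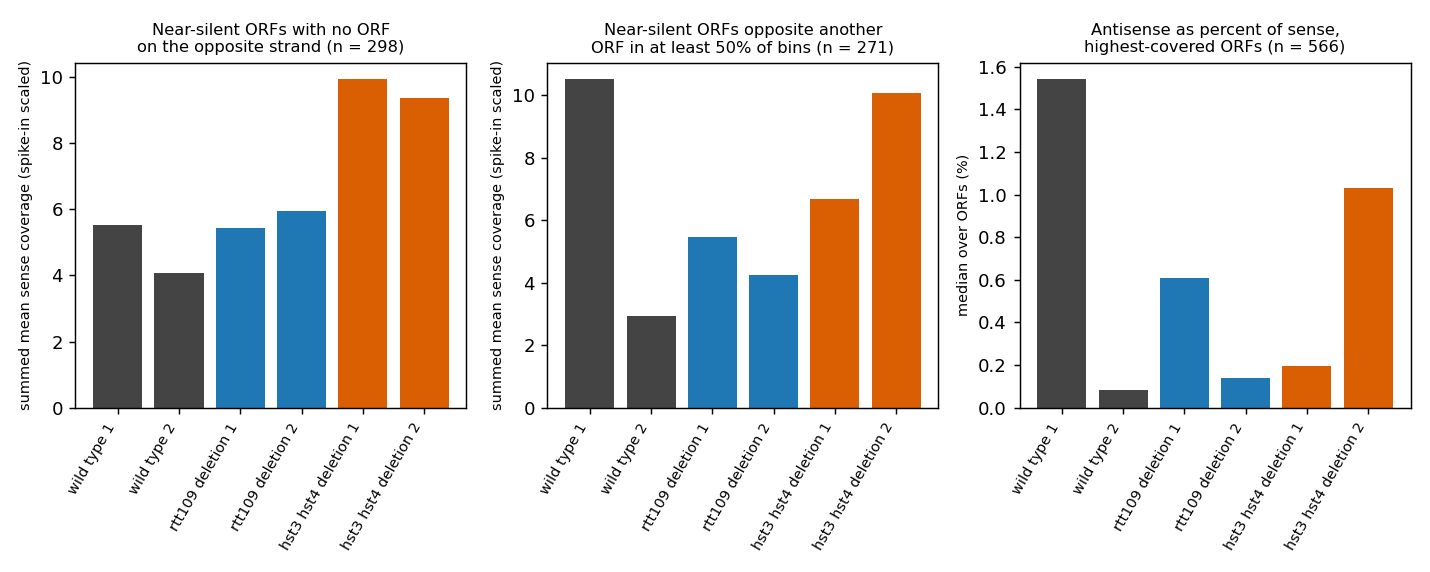
Bars give, for each of the 6 libraries, the summed mean sense coverage (spike-in scaled) of the 298 near-silent ORFs with no ORF opposite, that of the 271 opposite another ORF, and the antisense signal as a percent of sense in 566 highly covered ORFs. The first panel is highest in both hst3,4DD libraries (9.94 and 9.37), while the other panels are highest in wild type 1 and high in hst3,4DD 2.

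In hst3,4DD, 25 of the 622 near-silent ORFs (4.02%) rose and none fell. Among all 6226 ORFs, 88 (1.41%) rose and 2 (0.0321%) fell, in limma's moderated test with Benjamini-Hochberg adjustment over all ORFs at 0.05, on log2(coverage + 0.0219). Of the 25, 22 matched a RefSeq gene and 21 had no ORF opposite. The median log2 fold change was 0.23 over the near-silent ORFs and 0.07 over all ORFs. The pseudocount of 0.0219 is above the median near-silent level of 0.0194, and 43 near-silent ORFs read 0 in every library. Log2 fold changes of near-silent ORFs are therefore pressed toward 0, falls most of all, and understate the ratio of the coverages. At an unadjusted limma p under 0.05, 164 of the 622 near-silent ORFs differed, 157 of them higher in hst3,4DD. Of all 6226 ORFs, 656 differed, 618 of them higher. The calls rest on all 6 libraries together: leaving out any 1 of them, those of rtt109D included, left 0 calls, or 4 without hst3,4DD 2, and a fit without the intensity trend left 0. With a replicate block added to the fit, 0 were called as well. Centring each library on its median removed a shift of 0.09 (log2) between hst3,4DD and the wild type. It gave 8 near-silent ORFs (1.29%), all higher, against 126 of all ORFs (2.02%). The near-silent share was then below the general one. Leaving out the ORFs at 0 in all libraries gave 36 of 579 (6.22%), all higher, beside 3.83% of all ORFs higher and 0.113% lower.

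The largest rise was that of DCV1 (YFR012W), on chromosome 6 at bases 167901 to 168550 of the table's coordinates. It read 0.0116 and 0.0121 in the wild type, 0.00652 and 0.0147 in rtt109D, and 0.132 and 0.207 in hst3,4DD. Both hst3,4DD libraries stood far above the other 4, in which the mean per bin of DCV1 was within a few steps of 0. The log2 fold change was 2.47 ± 0.25 (SE, limma adjusted p = 0.0203) in hst3,4DD and −0.07 in rtt109D (limma adjusted p = 0.879). Signal was present in all 13 of its bins in both hst3,4DD libraries. The 250 bases downstream went from 0.0286 and 0.0152 in the wild type to 0.214 and 0.200 in hst3,4DD, while the 250 bases upstream read 0 in the wild type and at most 0.00129 in hst3,4DD. Its opposite strand, where no ORF lies, read 0.0177 and 0.0138 in the wild type, 0.0783 and 0.0683 in rtt109D, and 0.308 and 0.171 in hst3,4DD, a difference that did not pass adjustment (limma adjusted p = 0.526).

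Hexose transporters were among the 25. HXT9 and HXT11, near-identical putative hexose transporters, had 13 and 16 of their 35 bins counted. HXT9 read 0.00489 and 0.00501 in the wild type, 0.0172 and 0.0152 in rtt109D, and 0.0634 and 0.0885 in hst3,4DD, a log2 fold change of 1.85 ± 0.18 (SE, limma adjusted p = 0.0199) in the latter. HXT11 read 0.00323 and 0.00373, 0.0116 and 0.0115, and 0.0475 and 0.0302 in the same order. The 3 groups kept the same order in both genes with no overlap, although only the difference of hst3,4DD from the wild type passed the test. HXT10, a related transporter counted over all 34 bins, read 0.00924 and 0.00479 in the wild type, 0.0301 and 0.0267 in rtt109D, and 0.0709 and 0.0680 in hst3,4DD (log2 fold change 1.66 ± 0.16, limma adjusted p = 0.0199). GAL2, the galactose permease, read 0.0143 and 0.0112 in the wild type, 0.0150 and 0.0152 in rtt109D, and 0.0734 and 0.0551 in hst3,4DD. Its rtt109D values lay beside those of the wild type.

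ADY2, an acetate transporter, read 0.0155 and 0.0199 in the wild type, 0.0428 and 0.0358 in rtt109D, and 0.117 and 0.122 in hst3,4DD (log2 fold change 1.84 ± 0.17, limma adjusted p = 0.0199). FBP1, the gluconeogenic fructose-1,6-bisphosphatase, read 0.0228 and 0.0165, 0.0536 and 0.0503, and 0.0796 and 0.0804 in the same order. The 2 hst3,4DD libraries of each gene agreed closely and lay above all others. PDC6, the minor pyruvate decarboxylase, read 0.00863 and 0.00605 in the wild type, 0.0421 and 0.0515 in rtt109D, and 0.0633 and 0.0870 in hst3,4DD. DSF1, a putative mannitol dehydrogenase gene within 20 kb of the end of chromosome 5, read 0.00274 and 0.00431, 0.0757 and 0.0490, and 0.0802 and 0.113. In both genes the wild type lay within 3 steps of 0, and the libraries of both mutants lay above it.

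Other called ORFs had different roles. THI13, a thiamine precursor synthesis gene with close copies, was counted over 12 of its 21 bins and read 0.0152 and 0.0231 in the wild type, 0.0649 and 0.0466 in rtt109D, and 0.120 and 0.0897 in hst3,4DD. DIA3, linked to invasive growth, read 0.0111 and 0.00582, 0.0584 and 0.0517, and 0.0663 and 0.104. Both genes had their lowest values in the wild type and their highest in hst3,4DD. SPR2, a putative spore wall gene, read 0.00994 and 0.0139 in the wild type, 0.0125 and 0.0169 in rtt109D, and 0.0648 and 0.0626 in hst3,4DD (log2 fold change 1.34 ± 0.16, limma adjusted p = 0.0249). The wild type and rtt109D overlapped for SPR2, and hst3,4DD stood apart. LDS1 and SPO75, whose promoters are printed above, are described with the sporulation list.

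Unnamed ORFs were also among those that rose. YGL258W-A read 0.0135 and 0.0119 in the wild type, 0.0586 and 0.0303 in rtt109D, and 0.133 and 0.116 in hst3,4DD. YNL277W-A read 0.0111 and 0.0109, 0.0324 and 0.0303, and 0.0812 and 0.101. YLR296W read 0.0234 and 0.0190, 0.0540 and 0.0304, and 0.112 and 0.108. In each, rtt109D lay between the other groups. YDR215C differed, reading 0.00199 and 0.00339 in the wild type, 0.0674 and 0.0551 in rtt109D, and 0.0395 and 0.0680 in hst3,4DD, so that the mutants overlapped. YDL026W and YHR056W-A, which rose by 1.41 and 1.38 on the log2 scale, lie opposite another ORF in 75% and 100% of their bins, whose strand read 0.224 to 0.576 and 0.164 to 0.515. Outside the rule for names, the other 5 ORFs called were ANS1, ECM11, YML083C, ANB1 and YOR392W, with log2 fold changes of 0.88 to 1.21.

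**Figure D2:**
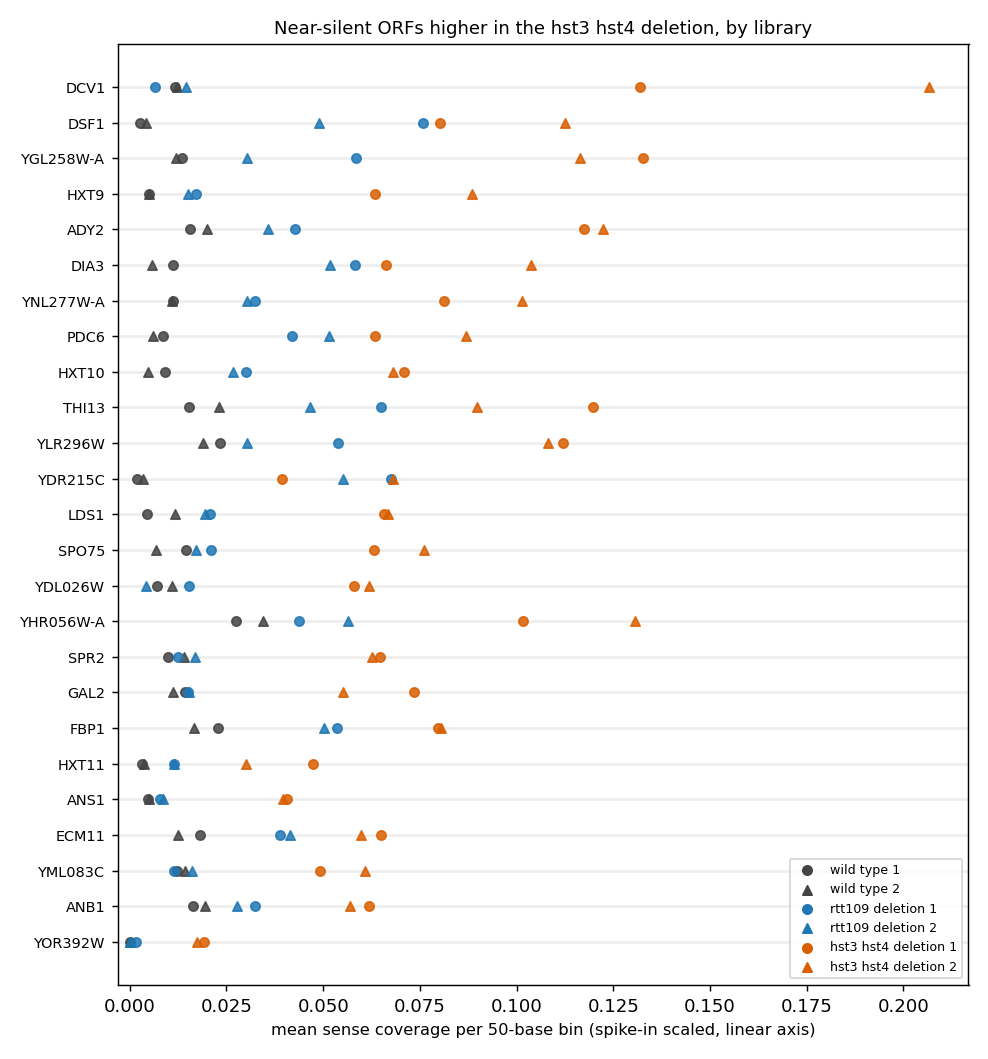
Points give the mean sense coverage per 50-base bin (spike-in scaled, linear axis) of the 25 near-silent ORFs called higher in hst3,4DD, for each of the 6 libraries, ordered by log2 fold change. The 2 hst3,4DD libraries lie to the right of both wild type libraries in every row, and rtt109D lies near the wild type for DCV1, SPR2, GAL2 and ANS1 and near hst3,4DD for YDR215C.

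Against the 1-read step, an ORF was counted as gaining when both mutant libraries exceeded the higher wild type library by at least 1 step of their own. In hst3,4DD, 147 near-silent ORFs (23.6%) gained, close to the 21.9% of all ORFs. The 2 shares are not on an equal footing. A step is large beside the median near-silent level of 0.0194 and small beside the 1.46 of the other ORFs. Leaving out 1 library can only raise the count, since fewer must then meet the rule. It was 265 without wild type 1 and 155 without wild type 2. Without hst3,4DD 1 it was 200, and without hst3,4DD 2 it was 223. Why these counts differ was not tested. With all libraries, the count was 101 of 289 among near-silent ORFs in RefSeq (34.9%), and 46 of 333 among those not in RefSeq (13.8%). It was 95 of the 298 with no ORF opposite (31.9%) and 37 of the 271 opposite another ORF (13.7%). Beside the called ORFs, HSP33, GAS4, YIL071W-A and SAE3 were among the 12 largest gains. HSP33, a chaperone of a near-identical family counted over 5 of its 16 bins, read 0.00636 and 0.00109 in the wild type, 0.0724 and 0.0132 in rtt109D, and 0.129 and 0.0470 in hst3,4DD. Its mutant libraries disagreed with each other by more than 2 times (limma adjusted p = 0.192). YIL071W-A read 0.0361 and 0.0133, 0.0533 and 0.0323, and 0.113 and 0.0978, opposite an ORF strand that read 1.02 to 2.35.

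In rtt109D, none of the 622 near-silent ORFs passed limma's test, while 9 of all 6226 ORFs (0.145%) rose and 1 (0.0161%) fell. At an unadjusted limma p under 0.05, 88 of the 622 near-silent ORFs differed, 64 of them higher. Of all 6226 ORFs, 966 differed, 405 of them higher. The median log2 fold change was 0.00 over the near-silent ORFs and −0.35 over all ORFs. The pseudocount presses the near-silent values toward 0, so the 2 medians are not on an equal footing. With each library centred on its median, which removed a shift of −0.33 (log2), 9 near-silent ORFs (1.45%) were called, all higher, a smaller share than the 219 of all ORFs (3.52%) called higher, with 12 lower (0.193%). The 9 were YLR012C, DSF1, YDR215C, PAU15, AMA1, DIA3, PDC6, YER085C and YPR092W. Leaving out the ORFs at 0 in every library gave 7 calls among the 579 near-silent ORFs that remained (1.21%), all higher, again a smaller share than that of all ORFs (2.44% higher and 0.501% lower). Gains over the step numbered 75 (12.1%), close to the share among all ORFs (12%), on the same unequal footing as in hst3,4DD. They were 152 with wild type 1 left out and 121 with rtt109D 1 left out. With all libraries, they were 53 of the 289 in RefSeq (18.3%) and 22 of the 333 not in RefSeq (6.61%).

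The largest gain in rtt109D was that of YLR012C, on chromosome 12 at bases 170001 to 170350, with no ORF opposite. It read 0.0148 and 0.0109 in the wild type, 0.118 and 0.144 in rtt109D, and 0.0699 and 0.0353 in hst3,4DD. The rtt109D libraries were highest with no overlap (log2 fold change 2.13 ± 0.26, limma adjusted p = 0.0642). PAU15, a seripauperin cell-wall gene beside an end of chromosome 9, read 0.0152 and 0.00271, 0.0552 and 0.0921, and 0.0762 and 0.0515. SUL1, a sulfate permease within 20 kb of an end of chromosome 2, read 0.0237 and 0.0134 in the wild type, 0.100 and 0.0481 in rtt109D, and 0.0413 and 0.0254 in hst3,4DD. The mutants overlapped for PAU15 but not for SUL1, and the 2 rtt109D values of SUL1 differed by about 2 times. DAK2, a dihydroxyacetone kinase, read 0.0291 and 0.0164, 0.0679 and 0.0757, and 0.0549 and 0.0701. CSS1 read 0.0256 and 0.0160, 0.0617 and 0.0615, and 0.0611 and 0.0562. In both, the 2 mutants had like values, each above the wild type.

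YPR092W read 0.0142 and 0.0155 in the wild type, 0.0506 and 0.0677 in rtt109D, and 0.0313 and 0.0247 in hst3,4DD. YER085C, with an ORF opposite all of its bins, read 0.0112 and 0.0252, 0.0540 and 0.0736, and 0.0562 and 0.0506, and its opposite strand read 0 in every library.

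**Figure D3:**
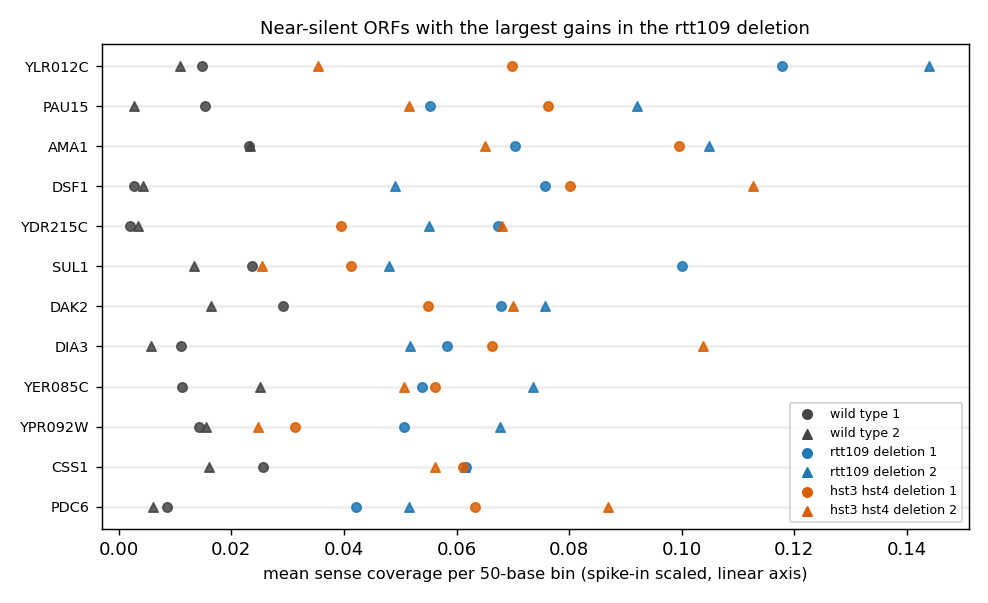
Points give the mean sense coverage per 50-base bin (spike-in scaled, linear axis) in each of the 6 libraries for the 12 near-silent ORFs with the largest rise of the group mean in rtt109D. Both rtt109D libraries exceed both wild type libraries in every row, and hst3,4DD is below rtt109D for YLR012C, SUL1 and YPR092W and above it for DSF1, DIA3 and PDC6.

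The 2 mutants were not separated in any near-silent ORF by limma's test (0 of 622, against 2 ORFs higher in hst3,4DD, 0.0321%, and 1 lower, 0.0161%, of 6226). At an unadjusted limma p under 0.05, 121 of the 622 near-silent ORFs differed, 116 of them higher in hst3,4DD. Of all 6226 ORFs, 909 differed, 810 of them higher. The median log2 difference of hst3,4DD from rtt109D was 0.27 over the near-silent ORFs, pressed toward 0 by the pseudocount, and 0.42 over all ORFs. DCV1 had the largest difference among the called ORFs, 2.54 (limma adjusted p = 0.0755). It passed when the ORFs at 0 in all libraries were left out of the fit (adjusted p = 0.00113), together with 10 other near-silent ORFs that included HXT9 and YDL026W. These 11 were 1.90% of the near-silent ORFs in that fit, all higher in hst3,4DD, beside 1.18% of all ORFs higher and 0.243% lower. With libraries centred no near-silent ORF was called, beside 0.0642% of all ORFs higher and 0.128% lower.

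Losses over the step, counted the same way with the groups exchanged, were few among ORFs already so low. They numbered 38 in rtt109D (6.11%, against 43.1% of all ORFs) and 12 in hst3,4DD (1.93%, against 7.84%), and a value near 0 leaves little room for a loss. Without wild type 2, the lower of the wild type libraries, the counts of loss were 249 in rtt109D and 144 in hst3,4DD. They were 71 and 70 without rtt109D 1 and 2, and 34 and 25 without hst3,4DD 1 and 2. YDR290W read 0.0852 and 0.0962 in the wild type, 0.0198 and 0.0479 in rtt109D, and 0.0552 and 0.0318 in hst3,4DD, with an ORF on the opposite strand in 57.1% of its bins. SWC7, a subunit gene of the SWR1 chromatin remodeler, read 0.0777 and 0.0905, 0.0231 and 0.0673, and 0.0365 and 0.0385. Neither passed the test in either mutant. YHL019W-A, YLL037W and YMR086C-A in rtt109D, and SEF1 and YGR269W in hst3,4DD, were the next largest losses, and they did not pass either. SEF1 rests on 4 bins, since the table's feature covers a small piece of the gene.

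No near-silent gene of the early meiosis list was called in either mutant. ECM11 and SPR2, both called in hst3,4DD, are on neither this list nor the sporulation list. Of 36 on the list with a value, 9 were near-silent, with 2 gains over the step in each mutant (22.2%), beside 12% of all ORFs in rtt109D and 21.9% in hst3,4DD. Their median log2 fold change was 0.12 in rtt109D and 0.38 in hst3,4DD. SAE3 read 0.00751 and 0.00724 in the wild type, 0.0291 and 0.0461 in rtt109D, and 0.118 and 0.0564 in hst3,4DD (limma adjusted p = 0.0567 in hst3,4DD). SPO13 read 0.0247 and 0.0183, 0.0231 and 0.0509, and 0.0861 and 0.0794 (limma adjusted p = 0.0857). Both had their highest values in hst3,4DD. MSH4, a meiotic crossover gene of which the table's feature covers only a piece, read 0.0209 and 0.0124, 0.00739 and 0.00631, and 0.0182 and 0.0222. REC114, needed for meiotic DNA breaks, read 0.0110 and 0.00824, 0.0112 and 0.0109, and 0.0235 and 0.0149. MSH4 in hst3,4DD overlapped the wild type, and REC114 stayed within a few steps of 0 in every library.

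Of 44 genes of the sporulation list with a value, 13 were near-silent. LDS1 and SPO75 rose in hst3,4DD (15.4%, beside 1.41% of all ORFs), and none was called in rtt109D. In hst3,4DD 10 of the 13 gained over the step (76.9%, beside 21.9% of all ORFs), and in rtt109D 6 gained (46.2%, beside 12%). The median log2 fold change of the 13 was 0.34 in rtt109D and 0.91 in hst3,4DD, beside 0.00 and 0.23 over all near-silent ORFs. LDS1 read 0.00437 and 0.0117 in the wild type, 0.0208 and 0.0194 in rtt109D, and 0.0657 and 0.0668 in hst3,4DD (log2 fold change 1.57 ± 0.17, limma adjusted p = 0.0212). SPO75 read 0.0145 and 0.00676, 0.0209 and 0.0173, and 0.0632 and 0.0761 (1.50 ± 0.19, limma adjusted p = 0.0279). For both, hst3,4DD was highest with no overlap. The strand opposite LDS1 read 0.00934 and 0.00706 in the wild type, 0.0135 and 0.0240 in rtt109D, and 0.139 and 0.110 in hst3,4DD, and was thus also highest there (limma adjusted p = 0.526).

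SMA1, a spore membrane gene, read 0.00530 and 0.00470 in the wild type, 0.0175 and 0.0259 in rtt109D, and 0.0846 and 0.0437 in hst3,4DD (limma adjusted p = 0.0507). AMA1, a meiotic activator of the anaphase-promoting complex, read 0.0231 and 0.0232, 0.0704 and 0.105, and 0.0994 and 0.0650. SPO77, another spore wall gene, read 0.0294 and 0.0185, 0.0450 and 0.0638, and 0.0676 and 0.0693. Each was higher in both mutants than in either wild type library, and none passed the test. GAS4 read 0.0435 and 0.0277 in the wild type, 0.0362 and 0.0603 in rtt109D, and 0.152 and 0.0829 in hst3,4DD. SPS2, SPO19 and PFS1 were the 3 with no gain over the step in hst3,4DD, where SPO19 read 0.0563 in 1 library and 0.00907 in the other.

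**Figure D4:**
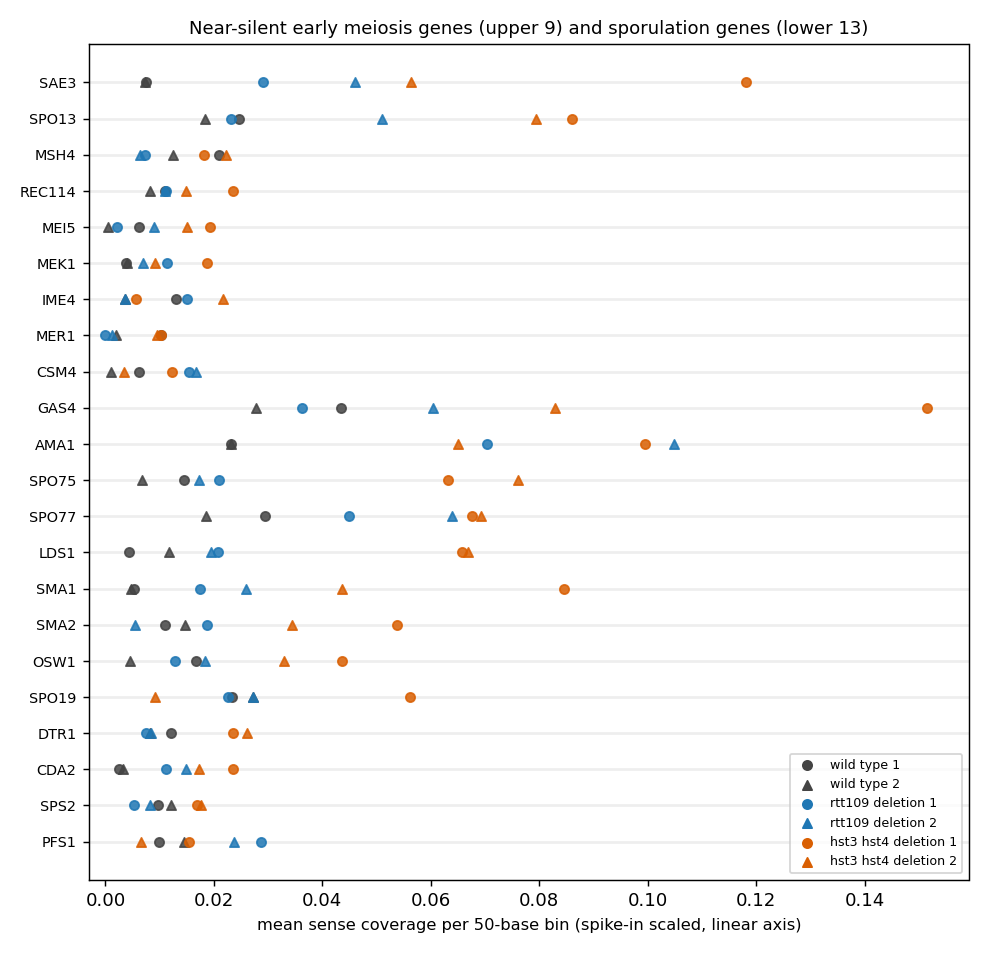
Points give the mean sense coverage per 50-base bin (spike-in scaled, linear axis) in each of the 6 libraries. Upper rows are the 9 near-silent genes of the early meiosis list, and lower rows the 13 of the sporulation list. Both hst3,4DD libraries lie above both wild type libraries for all 13 sporulation genes but SPO19 and PFS1, LDS1 and SPO75 being those that passed the test.

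IME4, which marks messenger RNA with methyl groups in meiosis and is known to be covered by an antisense transcript in haploid cells, had the most opposite-strand signal of the 9 near-silent early meiosis genes. Its sense strand read 0.0130 and 0.00352 in the wild type, 0.0150 and 0.00356 in rtt109D, and 0.00557 and 0.0217 in hst3,4DD. Its opposite strand read 0.888 and 0.653, 0.331 and 0.617, and 0.519 and 0.688. The 3 groups overlapped on both strands.

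Transporters and sugar genes followed next. Of 9 low-use hexose transporters with a value, 8 were near-silent, 3 of which (HXT9, HXT10 and HXT11) rose in hst3,4DD and gained over the step in each mutant (37.5% on each measure). Among all ORFs, 1.41% rose in hst3,4DD, and 12% gained in rtt109D and 21.9% in hst3,4DD. HXT14 read 0.00554 and 0.00345 in the wild type, 0.0126 and 0.00957 in rtt109D, and 0.0221 and 0.0120 in hst3,4DD, with no call. HXT13 read at most 0.0101, HXT15 and HXT17 read below 0.001 in every library, and HXT16 read 0 in all. Of 18 genes for other sugars with a value, 6 were near-silent. GAL2 rose in hst3,4DD (16.7%, beside 1.41% of all ORFs), and GAL10, GAL2, MAL12 and MAL32 gained over the step there (66.7%, beside 21.9%). GAL10, a galactose pathway enzyme, read 0.0249 and 0.0189, 0.0281 and 0.0332, and 0.0746 and 0.0480 (limma adjusted p = 0.121), and MAL12, a maltase with close copies, 0.00676 and 0.00489, 0.0185 and 0.0250, and 0.0367 and 0.0247. The maltose permease genes MPH2 and MPH3 read 0 throughout.

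The alpha-specific genes bear on mating type, since only hst3,4DD was MATalpha. STE3, the a-factor receptor, was represented by 6 bins wholly opposite another ORF. The table's feature covers only a piece of this gene, so the level of the whole gene is not given. STE3 read 0.00331 and 0.0118 in the wild type, 0.00514 and 0.00439 in rtt109D, and 0.0258 and 0.0247 in hst3,4DD. MF(ALPHA)2, an alpha-factor gene, read 0.0190 and 0.0326, 0.0180 and 0.0227, and 0.0444 and 0.0715. Both were highest in the MATalpha libraries without overlap, and neither passed the test (limma adjusted p = 0.152 and 0.295). Both were still low enough to be near-silent over the 6 libraries. The median log2 fold change in hst3,4DD was 0.72 for these 2 and also for all 4 listed alpha-specific genes with a value. Whether such small rises match the MATalpha label was not tested.

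Families found beside chromosome ends are given next. Of 11 seripauperin genes with a value, 6 were near-silent, with 2 gains in rtt109D (33.3%) and 1 in hst3,4DD (16.7%). Among all ORFs, 12% gained in rtt109D and 21.9% in hst3,4DD. PAU24 read 0.0102 and 0.00620 in the wild type, 0.0341 and 0.0414 in rtt109D, and 0.0193 and 0.0141 in hst3,4DD, and PAU20 read 0, 0, 0.00308, 0.00132, 0.00902 and 0.00742. PAU3 went the other way in rtt109D, reading 0.0420 and 0.0364, 0.00330 and 0.00846, and 0.0285 and 0.0601, without passing the test (limma adjusted p = 0.154). Of 4 near-silent COS genes none gained, and COS2, COS3 and COS12 read 0 in all libraries, while COS4 read 0.0169 and 0.00814, 0.0568 and 0.0214, and 0.0362 and 0.0216. The only Y′ helicase gene with a value, YRF1-7, was at 0 throughout. Near-silent thiamine and pyridoxine genes were THI13 and THI11, which both gained in hst3,4DD, and the stationary phase list held HSP33, HSP32 and SNO4, of which HSP33 gained in both mutants. Neither flocculin gene, FLO1 or FLO9, gained, and the aryl-alcohol dehydrogenase gene AAD15, at 0.0489 to 0.0718 in all libraries, gained in both. Over all 92 near-silent ORFs within 20 kb of an end, 15 gained in rtt109D (16.3%) and 22 in hst3,4DD (23.9%), with 5 called higher in hst3,4DD (5.43%). These shares are close to the 12.1%, 23.6% and 4.02% of all near-silent ORFs. Their median log2 fold change was 0.00 in rtt109D and 0.02 in hst3,4DD.

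On the strand opposite the near-silent ORFs, 362 had at least 4 bins free of any ORF. None was called in either mutant by limma's test on log2(coverage + 0.00255), nor was any of the 5769 ORFs tested (0%). At an unadjusted limma p under 0.05, 29 of the 362 differed in rtt109D and 51 in hst3,4DD. Among the 5729 ORFs with a value on both strands, the counts were 295 and 228. The median antisense log2 fold change was 0.00 in rtt109D, against −0.41 over all such ORFs, and 0.27 in hst3,4DD, against 0.30.

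A set of 43 near-silent ORFs read 0 in all 6 libraries, 31 of them within 20 kb of a chromosome end and 30 in RefSeq. They formed 26 runs of neighbouring ORFs at 0, of which 13 held at least 2 ORFs. One run on chromosome 16 held YPL283W-B, YPL283W-A, YRF1-7 and ERR2, between bases 651 and 10950, and one on chromosome 7 held COS12, YGL262W and PAU11, between 2801 and 6750. On chromosome 8, CUP1-1, a copper-binding metallothionein gene in a repeated array, and YHR054C read 0, as did CUP1-2 beside them. Several of these families are known to have close copies elsewhere in the genome. Whether reads of such copies were dropped is not given in the sources used here, so a value of 0 there need not be absence of transcript.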

How the data were processed

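Polyadenylated RNA was sequenced with a stranded kit after mixing with fission yeast total RNA, per the labels' protocols. The submitters' processing notes name CASAVA 1.7.0, and the aligner is not given in the sources used here. The deposited table holds, per the file headers, spike-in-scaled coverage signal per 50-base bin and strand, a version normalized to 1, and a replication timing score from the authors. Of 240976 bins, 11670 hold a letter R and were left out. The build of the table is not stated, so ORF positions are in the table's own coordinates.

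Mean sense coverage of all 6226 ORFs was fitted with limma 3.58.1 (R 4.3.3) with an intensity trend, all 3 groups in one fit, as log2(coverage + 0.0219), where the pseudocount is percentile 5 of the values above 0. Nothing was filtered. The antisense pseudocount was 0.00255. The fit was also run on simulated data without read steps, wrong-strand signal or shifts between libraries. That run therefore cannot tell how the fit handles these limits, and nothing here rests on it. The ORFs and the 12 gene lists were chosen with earlier results of these data known. Named ORFs are those called (at most 20 by size), the 12 largest gains and 4 largest losses per mutant, 4 on each side of the limit, up to 4 per list, and genes of the genotypes; others were named after their values were seen. Libraries of a group held no identical value above 0 in these ORFs. Restricting the counts to ORFs with no ORF opposite, and subtracting wrong-strand signal, were alternatives chosen after seeing the data. The subtraction took each library's median antisense percent of the opposite strand's signal. Gains were then 93 in rtt109D and 161 in hst3,4DD, against 75 and 147 in the main count. Losses were 36 and 14, against 38 and 12.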

Additional observations from a re-analysis of the deposited data

How the results depend on the processing

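The count of near-silent ORFs called in hst3,4DD, 25, was 23 or 21 with larger pseudocounts and 36 without ORFs at 0 in all libraries. It became 0 without the intensity trend, 8 with libraries centred, 12 with the columns normalized to 1, 38 without the first and last bin of each ORF, and 0 to 4 with 1 library left out. In rtt109D the count of 0 became 9 centred, 9 in the columns normalized to 1, 7 without ORFs at 0, 6 without end bins, and 0 to 2 with 1 library left out. Between the mutants, 0 became 11 without ORFs at 0 and 2 without end bins. The antisense counts were 0 in every alternative run. Without ORFs at 0, calls over all ORFs went from 10 to 182 in rtt109D and from 90 to 244 in hst3,4DD. Between the mutants they went from 3 to 88. Limma's prior degrees of freedom, the weight given to the spread shared by all ORFs, were 2.955 in the main fit and 12.45 without ORFs at 0. The main counts thus depend on keeping these ORFs. The cause of the moves was not tested. Deviations of same-numbered libraries were weakly correlated (0.03, −0.12 and 0.07 over 6226 ORFs). With 2 libraries a group, this cannot tell whether same-numbered libraries were prepared together. A replicate block, which was not part of the main fit, gave 0 calls in each comparison, so the 25 in hst3,4DD became 0.

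Gains in rtt109D, 75, became 136 with no margin, 23 with a margin of 3 steps, 47 with the largest step for every library, and 85 to 152 with 1 library left out. Losses in rtt109D, 38, became 74, 18 and 21 in the same order, 21 with the columns normalized to 1, 24 among ORFs with no ORF opposite, and 48 to 249 with 1 library left out, the highest without wild type 2. Gains in hst3,4DD, 147, became 235 with no margin, 56 with 3 steps, 95 among ORFs with no ORF opposite, and 155 to 265 with 1 left out, the highest without wild type 1. Losses in hst3,4DD, 12, became 20, 7 and 5 in the same order, and 16 to 144 with 1 left out, the highest without wild type 2. With 1 library left out, the remaining one of its group had no replicate, and limma assumed that it varies like the other groups. Without wild type 2, losses in rtt109D outnumbered gains (249 against 85), unlike with all libraries (38 against 75). Depth is unknown, and a value that rests on few reads cannot separate a low level from none. The step is that of a single bin, so a mean within a few steps of 0 rests on more reads in an ORF of more bins.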
